A study of Caenorhabditis elegans with 12 samples.

Results

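Whole-worm RNA of Caenorhabditis elegans carrying a misfolding cathepsin L substrate was compared with and without a mutation in the Argonaute RDE-1. The rde-1(ne219); cpl-1* worms (strain PP2246), called rde-1(ne219) worms below although they too carry cpl-1*, were set against cpl-1* worms (strain PP1386), both collected as day 1 adults in 3 samples each, 6 of the 12 samples of the series. The genes were taken by a fixed rule that used no ratio, namely every identifier whose comparison the deposited table marks as completed, which were 17146 of 46217. Both strains carry the integrated array hhIs113, in which the intestinal nhx-2 promoter drives a tagged cpl-1 with substituted residues, so the protein is made in 1 tissue while the RNA came from the whole animal. The genotype labels do not describe that array alike. For rde-1(ne219); cpl-1* they give W32A and Y35A with a YFP tag and a pharyngeal myo-2 promoter driving mCherry, and for cpl-1* they give W32A and W35A with a GFP tag, although the source labels of both strains name YFP. Strain PP1, the wild type, serves below only to place the levels, since any ratio against it would share a strain with the ratio studied.

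The values are FPKM, fragments scaled by transcript length and by mapped fragments, with 1 pooled value per gene and strain. The spread between the 3 samples of a strain and their depth are therefore unknown, so no difference below carries a test, an error or an n. Genes were compared where both strains were above 0 FPKM and the higher one reached 1 FPKM, and a gene was counted as lower or higher (fell or rose) when its FPKM differed by at least 2-fold. Ratios are log2 values of rde-1(ne219) worms over cpl-1*. In an extract of whole animals, fewer cells of a type and less RNA per cell cannot be told apart.

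RDE-1 binds small interfering RNAs cut from double-stranded RNA and hands their targets over for silencing and secondary amplification, and the ne219 allele changes a residue of its small RNA-binding PAZ domain. Misfolded cathepsin L is held in the endoplasmic reticulum (ER), where chaperones bind it, and is removed by ER-associated degradation through the proteasome. The tissues that dominate the RNA of a young adult hermaphrodite are well known. The germ line makes sperm in the last larval stage and then switches to oocytes, the adult intestine makes yolk proteins that oocytes take up, and the epidermis makes cuticle collagens in a wave before each molt and a different set in the adult.

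A total of 15596 genes could be compared. Of these, 2114 were lower (13.6%) and 4223 were higher (27.1%) in rde-1(ne219) worms, and 9259 were neither. At a 4-fold difference, 698 genes remained lower (4.48%) and 1411 higher (9.05%). The median log2 ratio of all genes compared was 0.16, and the middle 90% ran from -1.87 to 2.51. Relative to that median, 2775 genes lay at least 2-fold below and 3603 at least 2-fold above, so the share of higher genes among those that differed was 56.5% on that scale and 66.6% on the deposited one. Values of lists below are given on the deposited scale, and their medians can be read against 0.16.

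The genes that fell were fewer than those that rose but held more FPKM in cpl-1* worms. The lower genes together held 60767 FPKM in rde-1(ne219) worms and 186249 FPKM in cpl-1*, which were 5.88% and 17.1% of the FPKM of all genes compared. The higher genes held 158089 FPKM in rde-1(ne219) worms and 45850 FPKM in cpl-1*. The median lower gene had 10.7 FPKM in rde-1(ne219) worms, 29.5 FPKM in cpl-1* and 32.8 FPKM in wild type. For the median higher gene these levels were 7.5 FPKM, 2.15 FPKM and 1.01 FPKM. Among the 1722 genes at 100 FPKM or more in wild type, all of which had at least 1 FPKM in both strains, 373 were lower and 31 were higher. Genes of low level enter the comparison differently. Of all genes compared, 1450 passed the minimum of 1 FPKM only through rde-1(ne219) worms and 613 only through cpl-1*, so that their direction was fixed by the minimum. Of the 2663 genes under 1 FPKM in wild type, 1331 passed only through rde-1(ne219) worms, and no direction is read from that group.

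The chromosomes differed in their share of genes that rose and fell. On the X chromosome, which is largely silent in the germ line, 243 of 2119 genes were lower and 631 were higher, with a median log2 ratio of 0.54. Chromosome V had the largest share of higher genes, 996 of 3011, and a median of 0.46. Chromosomes I and III had the lowest medians, at -0.14 and -0.17. Chromosome II had the largest share of lower genes, 474 of 2730, or 17.4%. None of the 19 genes of the mitochondrial genome differed by 2-fold.

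Yolk genes showed the deepest fall of any list examined. The vit genes encode vitellogenins, the lipid-carrying yolk proteins, and all 5 that could be compared were lower, with a median log2 ratio of -4.36. The most abundant of them, vit-6, had 240 FPKM in rde-1(ne219) worms, 3026 FPKM in cpl-1* and 3017 FPKM in wild type. For vit-5 the levels were 105 FPKM in rde-1(ne219) worms, 1740 FPKM in cpl-1* and 1781 FPKM in wild type. In vit-1 they were 38.4 FPKM, 981 FPKM and 884 FPKM in the same order, a log2 ratio of -4.68. The comparison of vit-2 is marked as failed in the deposited table, so its 142 FPKM in rde-1(ne219) worms and 2837 FPKM in cpl-1* are listed without a call. All 6 vit genes together came to 567 FPKM in rde-1(ne219) worms against 9580 FPKM in cpl-1* and 9594 FPKM in wild type. The vit genes are similar in sequence, so the split of reads among them is uncertain.

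**Figure D1:**
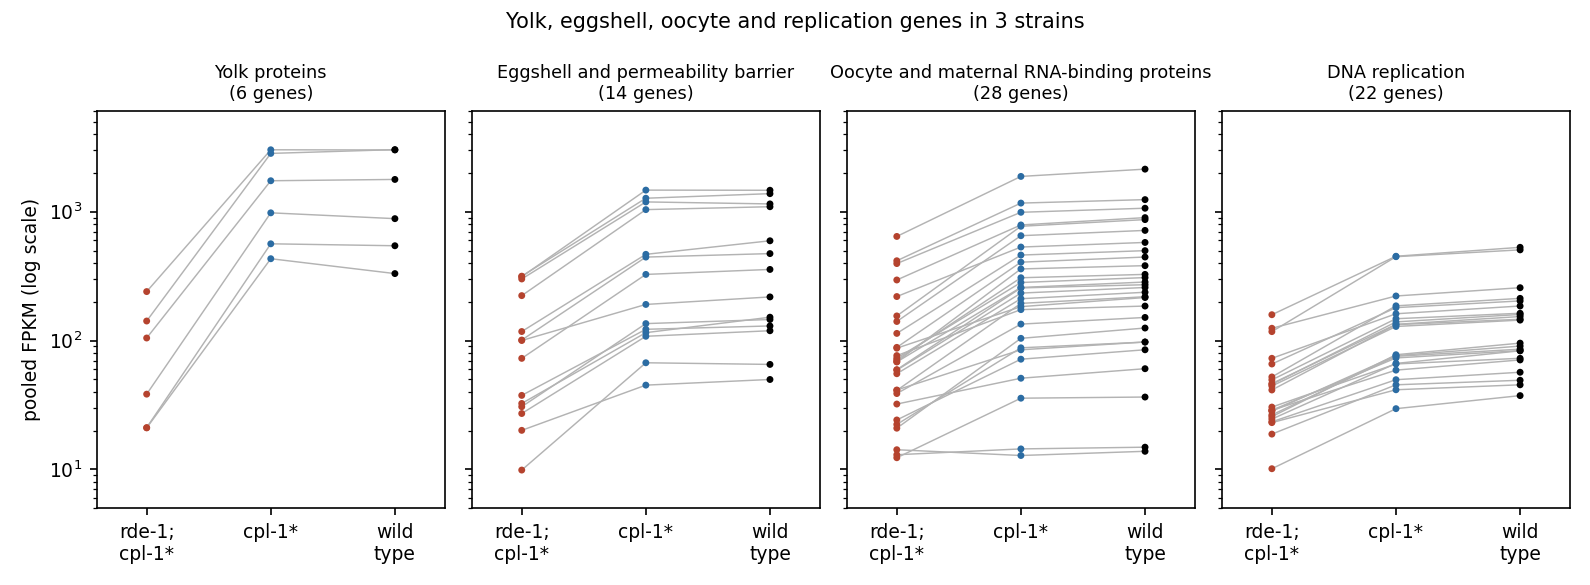
Pooled FPKM on a log axis of yolk, eggshell, oocyte and DNA replication genes, with 1 line per gene, in rde-1(ne219); cpl-1* (red, left), cpl-1* (blue, middle) and wild type (black, right). The yolk genes sat between 21 and 240 FPKM in rde-1(ne219) worms and between 432 and 3026 FPKM in cpl-1*.

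Most genes of the oocyte and of the eggshell it builds also fell. Of 14 eggshell and permeability barrier genes, 13 were lower and none was higher (median -2.0). The permeability barrier gene perm-2 had 313 FPKM in rde-1(ne219) worms, against 1472 FPKM in cpl-1* and 1468 FPKM in wild type. The chondroitin proteoglycan gene cpg-2 had 316 FPKM in rde-1(ne219) worms, against 1273 FPKM in cpl-1* and 1382 FPKM in wild type. The egg-5 gene, whose pseudophosphatase acts at the transition from oocyte to embryo, had the lowest ratio of the list at -2.77. The chitin synthase gene chs-1 did not reach 2-fold, with 100 FPKM in rde-1(ne219) worms and 191 FPKM in cpl-1*, and it shares its values with another identifier.

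The list of 28 RNA-binding and uptake proteins of oocytes and early embryos had 25 lower and no higher members (median -1.86). Its summed level was 3347 FPKM in rde-1(ne219) worms, 10707 FPKM in cpl-1* and 11824 FPKM in wild type. The Y-box gene cey-2, the most abundant member, had 643 FPKM in rde-1(ne219) worms and 1880.2 FPKM in cpl-1*. In oma-2, which is needed for oocyte maturation, the levels were 68.5 FPKM and 360 FPKM, the lowest ratio of the list at -2.39. The yolk receptor gene rme-2 had 70.7 FPKM in rde-1(ne219) worms and 307 FPKM in cpl-1*. The paralogous regulators fbf-1 and fbf-2 were 2 of the 3 members within 2-fold. The fbf-1 gene, which keeps germline stem cells from entering meiosis, had 13 FPKM in rde-1(ne219) worms and 14.4 FPKM in cpl-1*. Its paralog fbf-2 had 14.2 FPKM and 12.8 FPKM in the same order.

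Germline lists beyond the oocyte fell in part. Of 13 P granule genes, 8 were lower, and these included the embryonic meg-1 (12.1 FPKM in rde-1(ne219) worms, 69.1 FPKM in cpl-1*), meg-2, meg-3 and meg-4. The germline helicase gene glh-1, with 183 FPKM in rde-1(ne219) worms and 215 FPKM in cpl-1*, and pgl-1, with 140 FPKM and 214 FPKM, stayed within 2-fold. Of 27 genes of the meiotic axis, synapsis and recombination, 10 were lower and none was higher (median -0.85). The axis gene him-3 had 69.0 FPKM in rde-1(ne219) worms and 98.5 FPKM in cpl-1*, and the synaptonemal gene syp-1 had 36.1 FPKM and 42.2 FPKM. Early embryo markers, which report embryos held in the mother, had 5 lower genes of 7 compared (median -2.33), 4 of which passed the minimum of 1 FPKM only through cpl-1*. Of these, the homeobox gene pal-1, a maternal mRNA, had 29.1 FPKM in rde-1(ne219) worms and 117 FPKM in cpl-1*. The endoderm gene end-1 had 0.0207 FPKM in rde-1(ne219) worms and 1.66 FPKM in cpl-1*. With at least 5 FPKM required in the higher strain, the median of the embryo markers was -0.45. Whether embryos or oocytes inside the worms account for the genes that fell elsewhere was not tested.

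Most cell division genes of both lists below fell. Of 22 DNA replication genes, 20 were lower and none was higher (median -1.48). The ribonucleotide reductase gene rnr-2 had 117 FPKM in rde-1(ne219) worms and 448 FPKM in cpl-1*, and the sliding clamp gene pcn-1 had 159 FPKM and 451 FPKM. Of 39 genes of mitosis, the kinetochore and the centrosome, 28 were lower and none was higher (median -1.10). The cyclin B gene cyb-3 had 190 FPKM in rde-1(ne219) worms, 672 FPKM in cpl-1* and 794 FPKM in wild type. The smallest difference of that list was in the centrosome gene spd-5, with 55.0 FPKM in rde-1(ne219) worms and 82.7 FPKM in cpl-1*. The 27 histone genes compared were split into 10 lower and 6 higher ones, and their near-identical copies make the single values uncertain.

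Smaller differences of 1 sign marked the nuclear machinery, in the direction shared by most genes of its abundance. All 25 nuclear pore genes compared had a log2 ratio below the 0.16 of all genes, and 7 of them were lower (median -0.95). All 28 splicing factor genes and all 12 RNA polymerase II genes lay below it too, with 1 and 0 lower genes and medians of -0.68 and -0.62. So did 4607 of all 6119 genes compared at 10 to under 100 FPKM in wild type (median -0.42). At 100 FPKM or more in wild type, 1514 of all 1722 genes lay below it (median -0.39). The SR protein gene rsp-3 had 220 FPKM in rde-1(ne219) worms and 405 FPKM in cpl-1*. The 33 proteasome genes held a narrow range, with no gene past 2-fold and a median of -0.46. The proteasome gene pas-7 had 222 FPKM in rde-1(ne219) worms and 264 FPKM in cpl-1*.

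Genes of the ribosome and the mitochondrion differed little in level. Of 75 cytosolic ribosomal protein genes, 0 were lower and 4 were higher, with a median of 0.08 on the deposited scale and -0.09 relative to all genes. No gene was past 2-fold among the 43 respiratory chain genes (median -0.03), the 65 mitochondrial ribosomal protein genes (median -0.26) or the 17 genes of the TCA cycle and pyruvate dehydrogenase (median -0.10). The 12 listed genes of the mitochondrial genome had a median of 0.15 on the deposited scale and -0.02 relative to all genes, with none past 2-fold. Of 33 aminoacyl-tRNA synthetase genes, 1 was lower, and of 38 translation factor genes, 2 were higher. The exceptions among ribosomal proteins were single genes. The level of rpl-38 was 12664 FPKM in rde-1(ne219) worms, 6104 FPKM in cpl-1* and 6155 FPKM in wild type, the second-largest gain of FPKM of any gene.

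Pairs of paralogs within these lists stood on opposite sides. The translation initiation factor 5A gene iff-1, which acts in the germ line, had 1069 FPKM in rde-1(ne219) worms and 2022 FPKM in cpl-1*, while its paralog iff-2 had 624 FPKM and 268 FPKM. The ribosomal protein gene rpl-11.1 had 1749 FPKM in rde-1(ne219) worms and 2785 FPKM in cpl-1*, and rpl-11.2 had 1765 FPKM and 782 FPKM. The ATP synthase subunit gene asb-1, a germline form, had 219 FPKM in rde-1(ne219) worms and 388 FPKM in cpl-1*, and asb-2 had 498 FPKM and 370 FPKM. Of these 6 genes, iff-2 and rpl-11.2 passed 2-fold, and the pairs were chosen for their roles after their values were seen. Paralogs can share reads, so the split between them is uncertain.

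Cuticle collagens supplied both the largest losses of FPKM and 2 of the 10 largest gains. Of 140 collagen genes compared, 28 were lower and 95 were higher, with a median of 2.37. Their direction followed the wild-type level, as that of all genes did to a smaller extent. Of the 26 collagens at 100 FPKM or more in wild type, 19 were lower (73.1%) and none was higher (median -1.38). Of all genes at that level, 21.7% were lower and 1.8% higher. At 1 to under 10 FPKM in wild type, 84.1% of the collagens and 34.2% of all genes were higher, and 9.52% and 11.4% were lower. Of the 95 collagens under 10 FPKM in wild type, 84 were higher and 6 were lower, and 3 passed the minimum of 1 FPKM only through rde-1(ne219) worms and 5 only through cpl-1*. The abundant group summed to 20246 FPKM in rde-1(ne219) worms, 49795 FPKM in cpl-1* and 43663 FPKM in wild type. The group at 1 to under 10 FPKM summed to 19530 FPKM in rde-1(ne219) worms, 3216 FPKM in cpl-1* and 196 FPKM in wild type. Collagen genes resemble each other, so reads may be split between neighbours in sequence.

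**Figure D2:**
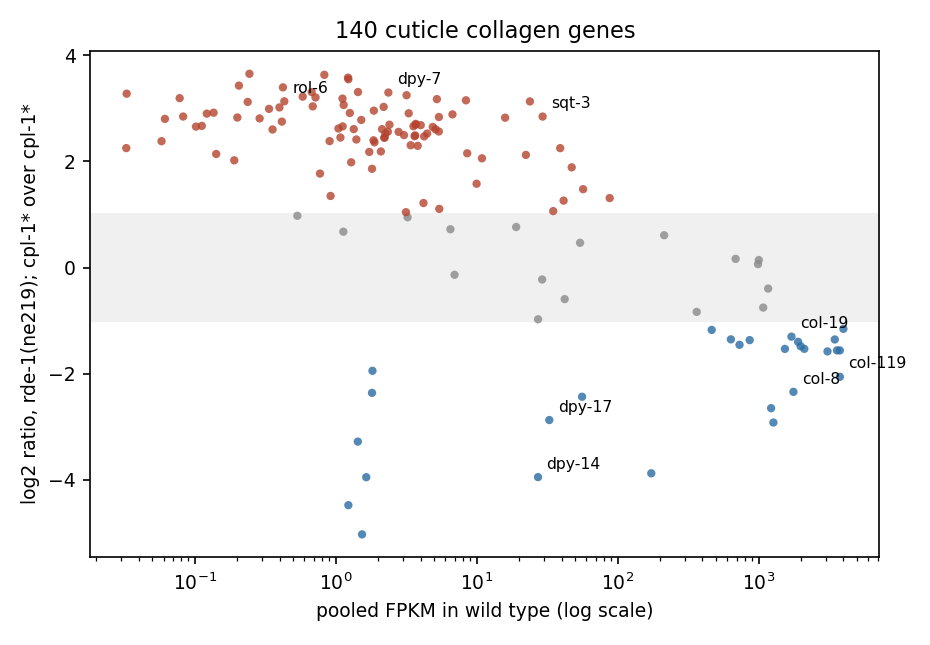
Log2 ratio of rde-1(ne219); cpl-1* over cpl-1* against the pooled wild-type FPKM (log axis) for 140 cuticle collagen genes, with genes at least 2-fold lower in blue, higher in red and neither in grey. The 26 genes at 100 FPKM or more in wild type hold no red point, and the genes under 1 FPKM hold no blue one.

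Among the abundant collagens, col-119 lost the most FPKM of any gene, with 993 FPKM in rde-1(ne219) worms, 4138 FPKM in cpl-1* and 3781 FPKM in wild type. The adult-stage collagen gene col-19 had 745 FPKM in rde-1(ne219) worms, 1837 FPKM in cpl-1* and 1714 FPKM in wild type. In col-124 the levels were 1951 FPKM, 4347 FPKM and 4004 FPKM in that order. Losses of this size also appeared for col-122, col-181, col-20 and col-140, which with col-119 and col-124 were 6 of the 10 largest losses of FPKM.

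All 6 furrow collagens, which form the annular furrows of the cuticle and are made early in each molting cycle, were higher (median 3.27). The dpy-7 gene had 94.2 FPKM in rde-1(ne219) worms, 9.58 FPKM in cpl-1* and 2.36 FPKM in wild type. The levels of dpy-10 were 87.6 FPKM, 11.9 FPKM and 6.73 FPKM in that order. Ratios of these 6 genes lay within a narrow band from 2.89 to 3.55. Of 13 other collagens whose mutants change body shape, 11 were higher and 2 were lower (median 2.84). The sqt-3 gene had 771 FPKM in rde-1(ne219) worms, 107 FPKM in cpl-1* and 29.4 FPKM in wild type, and rol-6 had 252 FPKM, 28.7 FPKM and 0.432 FPKM. The 2 lower ones were dpy-14, with 1.12 FPKM in rde-1(ne219) worms and 17.3 FPKM in cpl-1*, and dpy-17, with 3.13 FPKM and 22.9 FPKM.

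Molting genes rose with these collagens. Of 24 molting regulators, 20 were higher and none was lower (median 2.49). The period-like gene lin-42, whose mRNA cycles with the molts, had 111 FPKM in rde-1(ne219) worms, 17.3 FPKM in cpl-1* and 3.19 FPKM in wild type. The levels of mlt-8 were 196 FPKM in rde-1(ne219) worms, 31.4 FPKM in cpl-1* and 5.58 FPKM in wild type. The receptor gene nhr-23, which drives the molting program, differed little, with 28.4 FPKM in rde-1(ne219) worms and 32.5 FPKM in cpl-1*. Other families of the epidermis were also mostly higher. Higher genes numbered 31 of 38 hedgehog-related genes (median 2.26), 19 of 26 patched-related receptor genes (median 1.69), 18 of 29 astacin metalloprotease genes (median 1.82) and 22 of 26 cuticlin genes (median 1.61), with 2, 2, 1 and 1 lower genes. Of these members, 9, 6, 7 and 11 passed the minimum of 1 FPKM only through rde-1(ne219) worms. The ground-like gene grl-16 had 340 FPKM in rde-1(ne219) worms, 65.2 FPKM in cpl-1* and 1.89 FPKM in wild type. With 1 FPKM added to both strains, the medians of the cuticlin and hedgehog-related genes were 0.95 and 1.5. Basement membrane genes, which include the collagens emb-9 and let-2, did not share this, with 0 of 13 genes past 2-fold and a median of 0.32. A difference in the developmental stage of the collected worms was not tested, since all samples carry the same age label.

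Of 33 major sperm protein genes compared, 5 were higher and 0 were lower (median 0.75). The 15.2% that were higher lay under the 27.1% of all genes, and their near-identical copies make single values uncertain. All 35 listed genes summed to 5421 FPKM in rde-1(ne219) worms, 3208 FPKM in cpl-1* and 1392 FPKM in wild type. Of 60 other sperm genes, 29 were higher (48.3%) and 1 was lower (median 0.94), and 10 passed the minimum of 1 FPKM only through rde-1(ne219) worms. The Argonaute genes alg-3 and alg-4, which act in spermatogenesis, were both higher. The level of alg-3 was 20.7 FPKM in rde-1(ne219) worms, 6.63 FPKM in cpl-1* and 1.57 FPKM in wild type. Of 5 male markers, 2 could be compared. Of these, 1 passed the minimum of 1 FPKM only through cpl-1* and 1 only through rde-1(ne219) worms, so no direction is read from them. The level of her-1 was 0.961 FPKM in rde-1(ne219) worms and 1.29 FPKM in cpl-1*, and that of mab-3 was 3.65 FPKM and 0.861 FPKM.

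**Figure D3:**
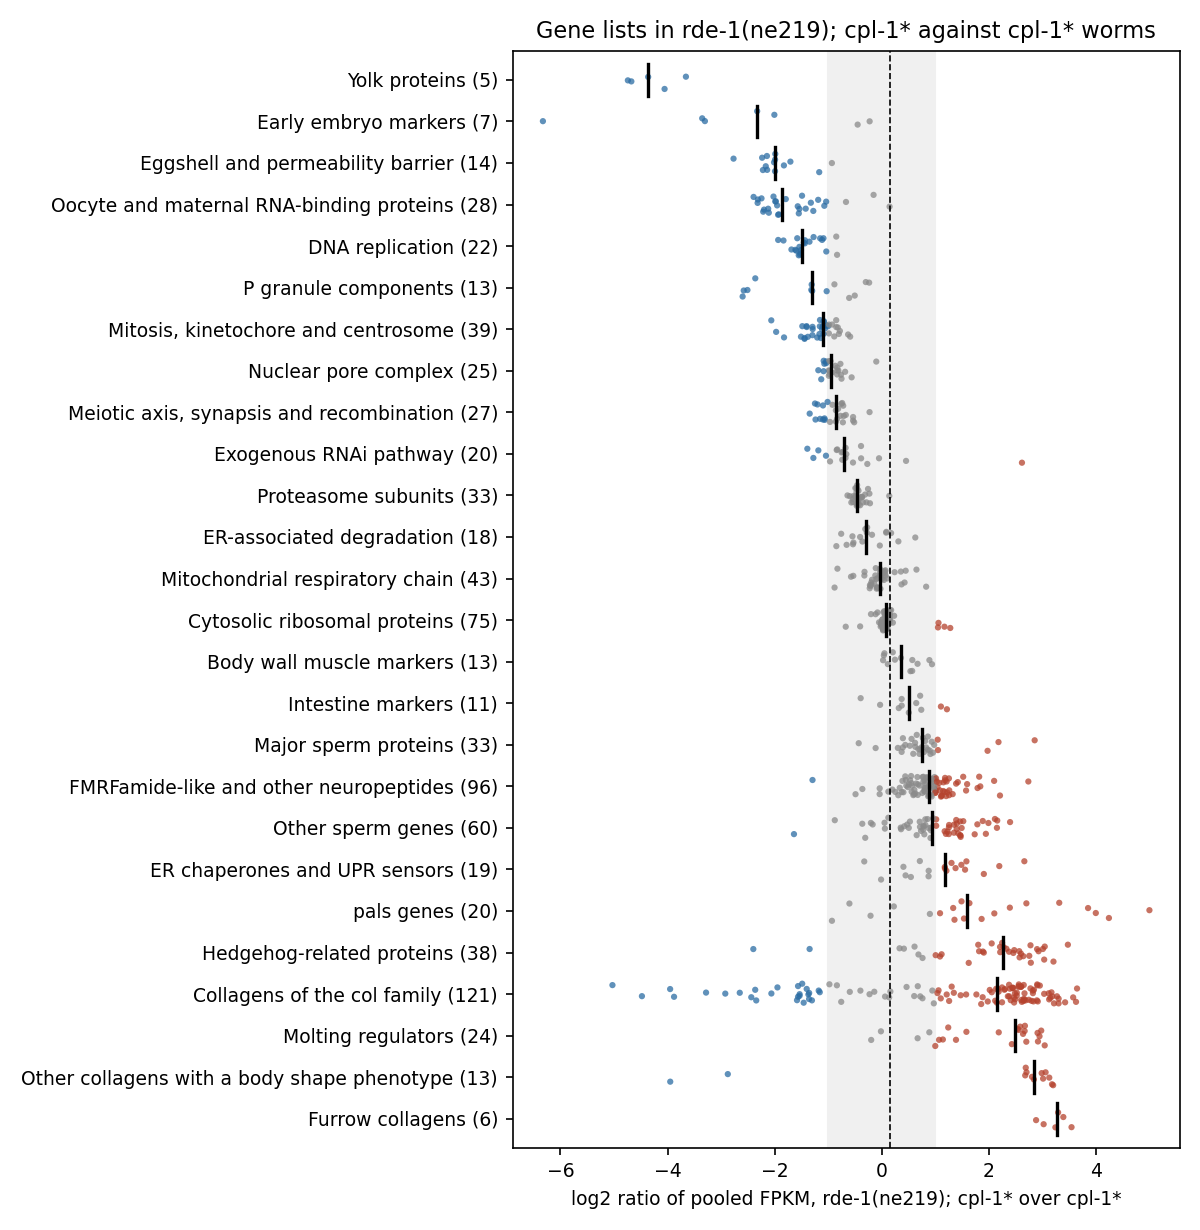
Log2 ratio of rde-1(ne219); cpl-1* over cpl-1* for the members of 26 gene lists (1 point per gene, number compared in brackets), with points at least 2-fold lower in blue, higher in red and neither in grey. Black bars are list medians, the dashed line is the 0.16 of all genes compared, and the medians run from -4.36 for yolk proteins to 3.27 for furrow collagens.

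Most ER chaperones rose, while no gene of ER-associated degradation passed 2-fold. Of 19 genes of ER chaperones and unfolded protein response sensors, 11 were higher and none was lower (median 1.18). They summed to 12134 FPKM in rde-1(ne219) worms, 4620 FPKM in cpl-1* and 3721 FPKM in wild type. The BiP gene hsp-4 had 1337 FPKM in rde-1(ne219) worms, 291 FPKM in cpl-1* and 214 FPKM in wild type, a log2 ratio of 2.2. The calreticulin gene crt-1 had 2998 FPKM, 1067 FPKM and 832 FPKM in that order. The choline kinase gene ckb-2 had the largest ratio of the list, 2.67, with 266 FPKM in rde-1(ne219) worms and 41.9 FPKM in cpl-1*. Protein disulfide isomerases also help to fold collagen, and of the pdi genes in the list, pdi-2, pdi-3 and pdi-6 were higher. The prolyl 4-hydroxylase gene dpy-18, which modifies collagen together with PDI-2, had 131 FPKM in rde-1(ne219) worms and 31.9 FPKM in cpl-1*. The part of the collagen genes in these values was not tested.

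**Figure D4:**
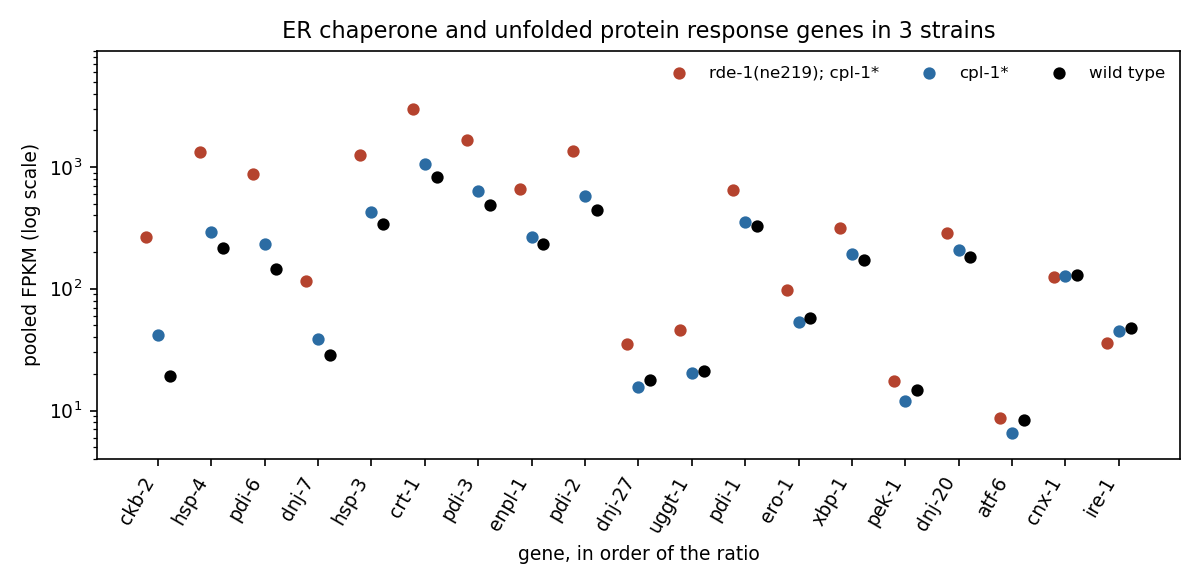
Pooled FPKM (log axis) of 19 ER chaperone and unfolded protein response genes in rde-1(ne219); cpl-1* (red), cpl-1* (blue) and wild type (black), ordered by the ratio between the first 2 strains. The left 11 genes, from ckb-2 to uggt-1, were at least 2-fold higher in rde-1(ne219) worms. The other 8 stayed within 2-fold, with ire-1 and cnx-1 at the right.

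The sensors themselves differed less. The kinase and nuclease gene ire-1 had 36.1 FPKM in rde-1(ne219) worms and 45.2 FPKM in cpl-1*, and pek-1 had 17.4 FPKM and 11.9 FPKM. The transcription factor gene xbp-1 had 314 FPKM in rde-1(ne219) worms, 191 FPKM in cpl-1* and 171 FPKM in wild type, short of 2-fold, and these values do not separate its spliced form. None of 18 ER-associated degradation genes was past 2-fold (median -0.29). The ubiquitin ligase gene sel-11 had 74.7 FPKM in rde-1(ne219) worms and 84.6 FPKM in cpl-1*, and its adaptor sel-1 had 84.6 FPKM and 79.8 FPKM. Of 23 genes of ER translocation and vesicle coats, with a median of 0.04 on the deposited scale and -0.12 relative to all genes, only sec-22, at 72.5 FPKM in rde-1(ne219) worms and 30.7 FPKM in cpl-1*, was higher.

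The cpl-1 gene gained the most FPKM of all genes, with 9749 FPKM in rde-1(ne219) worms, 2920 FPKM in cpl-1* and 1377 FPKM in wild type (log2 ratio 1.74). This value sums the endogenous gene and the array, which carry the same coding sequence apart from the substituted residues, and the part of each was not measured. Of 10 cathepsin genes compared, cpl-1 included, 4 were higher and none was lower. The cathepsin B gene cpr-3 had 238 FPKM in rde-1(ne219) worms, 16.1 FPKM in cpl-1* and 5.42 FPKM in wild type. Among the aspartyl proteases, 4 of 11 were lower and 2 were higher, and asp-12 had 222 FPKM in rde-1(ne219) worms and 21.5 FPKM in cpl-1*. The promoter of the array belongs to nhx-2, whose own mRNA had 43 FPKM in rde-1(ne219) worms and 33.2 FPKM in cpl-1*.

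Of 20 genes of the exogenous RNA interference pathway, 4 were lower (20%) and 1 was higher (5%), with a median of -0.70. Over all genes compared, 13.6% were lower and 27.1% were higher. Of all genes at 10 to under 100 FPKM in wild type, 17.2% were lower, which is near the share of this list. The rde-1 mRNA itself had 19.3 FPKM in rde-1(ne219) worms and 28 FPKM in cpl-1*, within 2-fold, and a point mutation need not change the level of its mRNA. Those that fell were rde-4 and 3 genes that act in the amplification of small RNAs, mut-2, rde-8 and rde-2. The levels of rde-4, the double-stranded RNA-binding partner of Dicer, were 49.5 FPKM in rde-1(ne219) worms and 112 FPKM in cpl-1*. The intestinal import gene sid-2 rose instead, with 118 FPKM in rde-1(ne219) worms, 19.2 FPKM in cpl-1* and 8.16 FPKM in wild type. Among 27 other Argonaute and endogenous pathway genes, 6 were lower (22.2%, against 13.6% of all genes) and 6 were higher (22.2%, against 27.1%). The RNA-dependent RNA polymerase gene rrf-2 had the largest ratio of these at 3.8, with 21.1 FPKM in rde-1(ne219) worms and 1.52 FPKM in cpl-1*, and the germline Argonaute gene ergo-1 had the lowest at -1.83.

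Single genes with the largest ratios were taken among those with at least 10 FPKM in the higher strain. The pud-3 gene on chromosome V (2324634 to 2325152 of WBcel235, Ensembl annotation) had the deepest fall, to 6.44 FPKM in rde-1(ne219) worms against 484 FPKM in cpl-1* and 219 FPKM in wild type. Its relative pud-4 had 3.45 FPKM in rde-1(ne219) worms and 188 FPKM in cpl-1*. Of the 12 pud and far genes compared, 5 were lower (41.7%, against 13.6% of all genes) and 1 was higher. However, 3 of the 12 passed the minimum of 1 FPKM only through cpl-1*, which fixed their direction. The invertebrate lysozyme gene ilys-5 had 63.7 FPKM in rde-1(ne219) worms, 1279 FPKM in cpl-1* and 1674 FPKM in wild type. The autophagy receptor gene sepa-1, known from embryos, had 0.493 FPKM in rde-1(ne219) worms and 10.9 FPKM in cpl-1*. The 12 largest falls also held 3 vit genes, the acid phosphatase gene pho-11, R11.4, C32H11.4, C04C3.4 and sdz-28.

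The largest rises began with genes close to 0 in cpl-1*. The identifier WBGene00014188, named ZK1025.8 in the deposited table and ZK1025.2 in the current gene names, had 13.8 FPKM in rde-1(ne219) worms and 0.0672 FPKM in cpl-1*. Y47H10A.5, a known target that mir-243 silences through RDE-1, had 676 FPKM in rde-1(ne219) worms, 4.82 FPKM in cpl-1* and 2.34 FPKM in wild type, a log2 ratio of 7.13. The other high ratios were in Y105C5A.12, C25F9.12, rab-11.2, F22E5.6, W07G1.25, sdz-35, Y75B8A.39, C29F3.3, acs-2 and F15B9.6. Of these, rab-11.2, which shares its values with W04G5.10, had 26.7 FPKM in rde-1(ne219) worms and 0.815 FPKM in cpl-1*. The acyl-CoA synthetase gene acs-2 was the only one of them with a high wild-type level, at 92.4 FPKM in rde-1(ne219) worms, 4.28 FPKM in cpl-1* and 42.8 FPKM in wild type. The serpin gene srp-7 added the third-largest gain of FPKM, with 2268 FPKM in rde-1(ne219) worms, 238 FPKM in cpl-1* and 157 FPKM in wild type.

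Genes listed at 0 in 1 strain have no ratio. There were 41 such genes at 0 in rde-1(ne219) worms and 44 at 0 in cpl-1*. The highest on either side was a microRNA locus. The cel-mir-2207 locus was listed at 0 in rde-1(ne219) worms and at 140 FPKM in cpl-1*, and cel-mir-80 was listed at 101 FPKM in rde-1(ne219) worms and at 0 in cpl-1* and in wild type. The number of fragments behind these values is not given.

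Counted at 2-fold, the share of higher genes among markers of somatic tissues was below that of all genes compared, or about the same. Most ratios in the body wall muscle, intestine, pharyngeal and neuron lists still lay above the median ratio of all genes compared. All 13 body wall muscle markers stayed within 2-fold (median 0.36), and the myosin gene unc-54 had 766 FPKM in rde-1(ne219) worms and 481 FPKM in cpl-1*. Of 11 intestine markers, the intermediate filament gene ifb-2 and elt-2 were higher and none was lower (median 0.51). The gut transcription factor gene elt-2 had 26.6 FPKM in rde-1(ne219) worms and 11.4 FPKM in cpl-1*, and the digestive tract actin gene act-5 had 862 FPKM and 523 FPKM. Pharyngeal muscle markers had a median of 0.88 with 2 of 7 higher (28.6%). Neuron markers had a median of 0.92 with 5 of 19 higher (26.3%), and both shares were near the 27.1% of all genes. Of these members, 1 pharyngeal and 3 neuron markers passed the minimum of 1 FPKM only through rde-1(ne219) worms. Below the median ratio of all genes compared lay 0 of the 7 pharyngeal and 1 of the 19 neuron markers. The same held for 2 of 11 intestine, 4 of 13 body wall muscle and 2 of 4 gonadal sheath markers. Of 4 gonadal sheath markers, inx-8 was lower, with 32.4 FPKM in rde-1(ne219) worms and 75.3 FPKM in cpl-1*, and inx-9 had 11.4 FPKM and 19.7 FPKM. The other members stayed within 2-fold as well, ceh-18 with 13.4 FPKM in rde-1(ne219) worms and 7.01 FPKM in cpl-1*, and lim-7 with 5.71 FPKM and 4.24 FPKM. The reference genes used for normalization elsewhere in the study, cdc-42 and pmp-3, had log2 ratios of -0.10 and -0.76.

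Stress, immune and signalling families moved unevenly. Of 20 pals genes, which mark the response to intracellular pathogens, 15 were higher and none was lower (median 1.59), and 9 of the 20 passed the minimum of 1 FPKM only through rde-1(ne219) worms. The largest ratio was in pals-14, with 8.54 FPKM in rde-1(ne219) worms and 0.266 FPKM in cpl-1*. The member pals-5, at 0.184 FPKM in rde-1(ne219) worms and 0.109 FPKM in cpl-1*, was not compared. Of 13 genes of cytosolic chaperones and heat shock, 5 were lower (38.5%, against 13.6% of all genes) and none was higher (median -0.45). Of these 13, 1 passed the minimum of 1 FPKM only through cpl-1*. The list also counts the heat shock factor gene hsf-1, which had 23.7 FPKM in rde-1(ne219) worms and 48.9 FPKM in cpl-1*. The abundant chaperone gene hsp-90 did not reach 2-fold, with 1278 FPKM and 1744 FPKM in the same order. C-type lectins were split into 43 lower (34.4%) and 39 higher (31.2%) of 125. Of these 125, 22 passed the minimum only through cpl-1* and 21 only through rde-1(ne219) worms. The most abundant lectin gene in cpl-1*, clec-87, had 289 FPKM in rde-1(ne219) worms, 1346 FPKM in cpl-1* and 1580 FPKM in wild type. Nuclear hormone receptors had 59 higher (32.4%, near the 27.1% of all genes) and 3 lower genes of 182 (median 0.70). Of these 182, 20 passed the minimum of 1 FPKM only through rde-1(ne219) worms. FMRFamide-like and other neuropeptides had 34 higher (35.4%) and 1 lower of 96 (median 0.89), and the lower one was nlp-27.

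Digestive and metabolic gene families had no shared direction, and whole-worm RNA does not give the tissue of their members. Of 9 lysozyme genes compared, ilys-5 and lys-6 were lower and lys-3 and ilys-4 were higher. Of all genes compared, 13.6% were lower and 27.1% were higher. Lipases had 2 lower (12.5%) and 7 higher genes (43.8%) of 16, with a median of 0.80 that was 2.09 with at least 5 FPKM required. Of these 16, 2 passed the minimum of 1 FPKM only through cpl-1* and 1 only through rde-1(ne219) worms. The acyl-CoA dehydrogenases, synthetases and oxidases had 3 lower (7.14%) and 15 higher (35.7%) of 42 (median 0.23). Of these 42, 2 passed only through rde-1(ne219) worms. Fatty acid desaturases and elongases had 1 lower and 4 higher genes of 16, with a median of 0.13 on the deposited scale and -0.03 relative to all genes. The stearoyl-CoA desaturase gene fat-7 was the lower one, at a log2 ratio of -1.47, and fat-5, a palmitoyl-CoA desaturase gene, was among the higher ones at 1.97. Cytochromes P450 had 8 lower (16.3%) and 13 higher genes (26.5%) of 49, near the 13.6% and 27.1% of all genes. Their median of 0.14 became -0.02 relative to all genes. Of these 49, 7 passed the minimum of 1 FPKM only through cpl-1* and 4 only through rde-1(ne219) worms. Glutathione S-transferases had 7 lower (17.9%, against 13.6% of all genes) and 2 higher genes of 39. Their median of -0.05 changed sign with no filter on low values. Of these 39, 3 passed the minimum of 1 FPKM only through cpl-1* and 1 only through rde-1(ne219) worms. UDP-glucuronosyltransferases had 4 lower and 15 higher genes of 55 (median 0.18), and these 27.3% higher lay near the 27.1% of all genes. Of these 55, 4 passed the minimum only through rde-1(ne219) worms.

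Of 12 epidermal antimicrobial peptide genes, 7 were higher and 1, nlp-27, was lower (median 1.32). Members such as nlp-27 and nlp-30 were also counted among the neuropeptides above. Of 9 superoxide dismutase, catalase and metallothionein genes, only sod-4 was higher. The insulin-like peptides had 10 higher (34.5%, against 27.1% of all genes) and 1 lower gene of 29 (median 0.69). Of these 29, 4 passed the minimum of 1 FPKM only through rde-1(ne219) worms. Of 9 heterochronic genes, which time larval development, 5 were higher and lin-41 was lower (median 1.05). The abu and pqn genes, listed together by symbol, had 26 higher (44.1%) and 3 lower of 59 (median 0.75). Of these 59, 5 passed the minimum of 1 FPKM only through rde-1(ne219) worms. With shared identifiers counted once, 15 of 46 pqn genes alone were higher (median 0.43), which at 32.6% lay near the 27.1% of all genes. Enzymes that process and cross-link collagen had 4 higher genes (30.8%) and 1 lower of 13 (median 0.84). The lower one, the peroxidase gene skpo-1, had 34.6 FPKM in rde-1(ne219) worms and 137 FPKM in cpl-1*.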

How the data were processed

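Total RNA of whole day 1 adults was sequenced by the study in 12 samples of 4 groups, of which the 6 of the rde-1(ne219) worms and of their cpl-1* reference entered the comparison and wild type was used for levels only. The submitters' processing notes name FastQC 0.11.7, HISAT2 2.1.0, StringTie 1.3.4d, Cuffdiff 2.2.1 and the build WBcel235. The deposited values are FPKM that the authors pooled over 3 samples per strain, 1 value per gene and strain. Columns of the authors' own fold changes and tests were not used. Because no value per sample was used, the spread and depth of the samples are unknown, no count model could be fitted and no p-value is given.

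Identifiers with the status OK were kept (17146 of 46217). Of these, 41 were listed at 0 in rde-1(ne219) worms, 44 at 0 in cpl-1*, and 1509 were under 1 FPKM in both strains. Log2 ratios were computed with no pseudocount for the other 15596, and 2-fold was counted as a difference. Some identifiers share symbol, locus and values with another, 1357 among those compared. Tools were pandas 2.3.3 and numpy 2.4.6 under python 3.11.15, and matplotlib 3.10.9 for figures. The steps were tested on simulated data.

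The 63 gene lists and the rule for named genes were chosen with earlier results of these data known. The rule took 15 genes of the study, the 12 largest falls and rises at 10 FPKM or more, the 10 largest losses and gains of FPKM, every member of lists of up to 8, the 3 most abundant and the extreme members of longer lists, and the 5 highest genes listed at 0 in the other strain. Other genes are named for their known role or as exceptions, after their values were seen. Coordinates come from the Ensembl annotation of WBcel235. Alternatives were another pseudocount, FPKM minimum and fold, ratios centred on the all-gene median, and shared identifiers counted once.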

Additional observations from a re-analysis of the deposited data

How the results depend on the processing

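The number of lower genes was 4027 at a threshold of 1.5-fold and 698 at 4-fold. The number of higher genes was 1411 at 4-fold and 2605 with at least 5 FPKM required in the higher strain. The other alternatives kept both counts within 1.5 times of 2114 and 4223, with the higher genes outnumbering the lower ones in every setting run. With 1 FPKM added, 3 of 63 list medians moved by more than 1.5-fold and none changed sign. The median of the lipases was 2.09 with at least 5 FPKM required. For the early embryo markers the median of -2.33 became -1.07 with 1 FPKM added and -0.45 with at least 5 FPKM required. No paired analysis was possible because each strain has 1 pooled value per gene, and for the same reason no sample could be left out. Spread between samples and depth limit every value here, and neither is known.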

Other observations

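Families grouped by their symbol, at 15 genes compared or more, were chosen after their values were seen and are given as values. The 63 fbxb genes, which encode F-box proteins, had a median level of 0.137 FPKM in rde-1(ne219) worms, 1.93 FPKM in cpl-1* and 3.13 FPKM in wild type. Of them, 60 passed the minimum of 1 FPKM only through cpl-1*, which fixed their direction, so no count of lower genes is read from this family. The highest fbxb level was 1.39 FPKM in rde-1(ne219) worms and 5.62 FPKM in cpl-1*, and members of the family resemble each other in sequence. The same holds for the 27 sdz genes, named for their dependence on the embryonic factor SKN-1, of which 21 passed only through cpl-1*. The 3 vet genes compared, a family under that size of 15, were also picked after their values were seen. These genes, vet-1, vet-2 and vet-6, whose name stands for very early transcripts, were all lower. In vet-2 the level was 1.07 FPKM in rde-1(ne219) worms and 15.9 FPKM in cpl-1*.

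The skr genes, which encode Skp1-related partners of F-box proteins, had 10 lower (50%) and 3 higher (15%) of 20 (median -1.13). Of all genes compared, 13.6% were lower and 27.1% were higher. The annotation terms named here were picked after their values were seen, among those with at least 100 genes compared. The term for the cell cycle had 76 lower (47.8%) and 3 higher (1.89%) of 159. The term for peptidyl-tyrosine dephosphorylation had 10 lower (10%) and 56 higher (56%) of 100 (median 1.28). Its median level in wild type was 1.21 FPKM, near the minimum of 1 FPKM. How many members of either term passed that minimum through 1 strain only was not counted.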
